A study of Mus musculus with 6 samples.

Results

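The genes by which cells make, take up, store and release cholesterol were followed in whole mouse testis, in 3 poly(A) RNA libraries labelled L3mbtl2 cKO and 3 labelled control. The list holds 34 genes, picked for their role: the enzymes of mevalonate and sterol synthesis, the genes that control SREBP, and the genes of cholesterol uptake, storage and release. It makes up 34 of the 23253 genes listed in any library. By the labels, the cKO libraries are from C57BL/6 testes with a conditional knockout of L3mbtl2, a chromatin protein of a Polycomb repressive complex, and the control libraries from C57BL/6 testes of genotype control, all at an age of 8 months; the level of L3mbtl2, given below, goes against this. The labels name neither the Cre driver nor the cells in which the gene was deleted. Nor do they say whether each library stands for its own animal, and the p-values therefore reflect only how far these libraries scatter, possibly for technical reasons.

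Cholesterol is built from acetyl-CoA through mevalonate, farnesyl diphosphate, squalene and lanosterol, and the last steps remodel lanosterol into cholesterol. The transcription factors SREBF1 and SREBF2 switch these genes on when sterol is scarce, and SCAP and the INSIG proteins hold the factors back when it is plentiful. In the testis, Leydig cells use cholesterol to make testosterone, taking it from lipoproteins, from stored esters and from their own synthesis, while germ cells carry out sterol synthesis of their own and Sertoli cells handle the lipid of dying germ cells.

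The labels and the targeted gene went against each other. Expected counts of L3mbtl2 were 1030, 1105 and 1031 in the libraries labelled cKO, against 658, 705 and 673 in those labelled control, a log2 fold change of 0.67 (SE 0.10, edgeR adjusted p = 0.166, DESeq2 adjusted p = 0.000495; exact two-sided permutation p = 0.1, the smallest that 3 against 3 libraries can give). The deposited files are also named for the opposite genotype. The groups are therefore called by their labels throughout, and every direction below follows the labels. Expected-count totals ran from 18604191 to 18822050 in the libraries labelled cKO and from 17689205 to 18083291 in those labelled control. The control libraries differed more among themselves: their log2 CPM correlated across genes at 0.981 to 0.982 for pairs labelled cKO and at 0.937 to 0.972 for pairs labelled control. Control replicate 2 lay closer to the libraries labelled cKO, at 0.980 to 0.982, than to control replicates 1 and 3.

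Most cholesterol genes had lower values in the libraries labelled cKO, but none passed the test across all genes. Of the 34 members, 33 passed the filter on low counts, and 29 of these had a negative log2 fold change (labelled cKO minus labelled control) and 4 a positive one, those 4 being Fdft1, Sqle, Insig2 and Lipe, of which Sqle and Insig2 turn negative when scaled by library totals. The median over the 33 members was -0.89, a control level 1.85-fold that of the libraries labelled cKO, while the median over all 18269 genes tested was -0.0048, with 50.5% of them negative. At an adjusted p of 0.05, edgeR's quasi-likelihood test called 0 members and 0 genes in all in either direction, which is 0.00% of the genes tested. The lowest adjusted p in the table, 0.166, was shared by 18 members among 2611 genes.

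At an unadjusted p under 0.05, 20 members were lower and 2 (Fdft1 and Lipe) higher, beside 18.8% of all genes lower and 8.85% higher. The CPM values of the groups did not overlap for 18 members, with 15 lower and 3 higher in the libraries labelled cKO, while 19.8% of all genes lay wholly lower and 18.0% wholly higher. DESeq2 called 13 members lower (Acat2, Hmgcs1, Hsd17b7, Ebp, Sc5d, Dhcr7, Srebf1, Scap, Lipa, Npc1, Soat1, Stard4 and Tspo) and 0 higher, against 7.66% and 0.405% of the genes it tested. With control replicate 2 left out, edgeR called 25 of the 33 members kept lower and 1 (Lipe) higher, against 20.7% and 11.0% of all genes. It also called Tm7sf2 lower (26 in all). That gene was not listed in any library labelled cKO, was set to 0 there, and passed the filter through the control libraries. With any other single library left out, edgeR called 0 members in either direction. Control replicate 2 was the control closest to the libraries labelled cKO, so leaving it out widens the difference by itself. The counts without it are a description only.

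**Figure D1:**
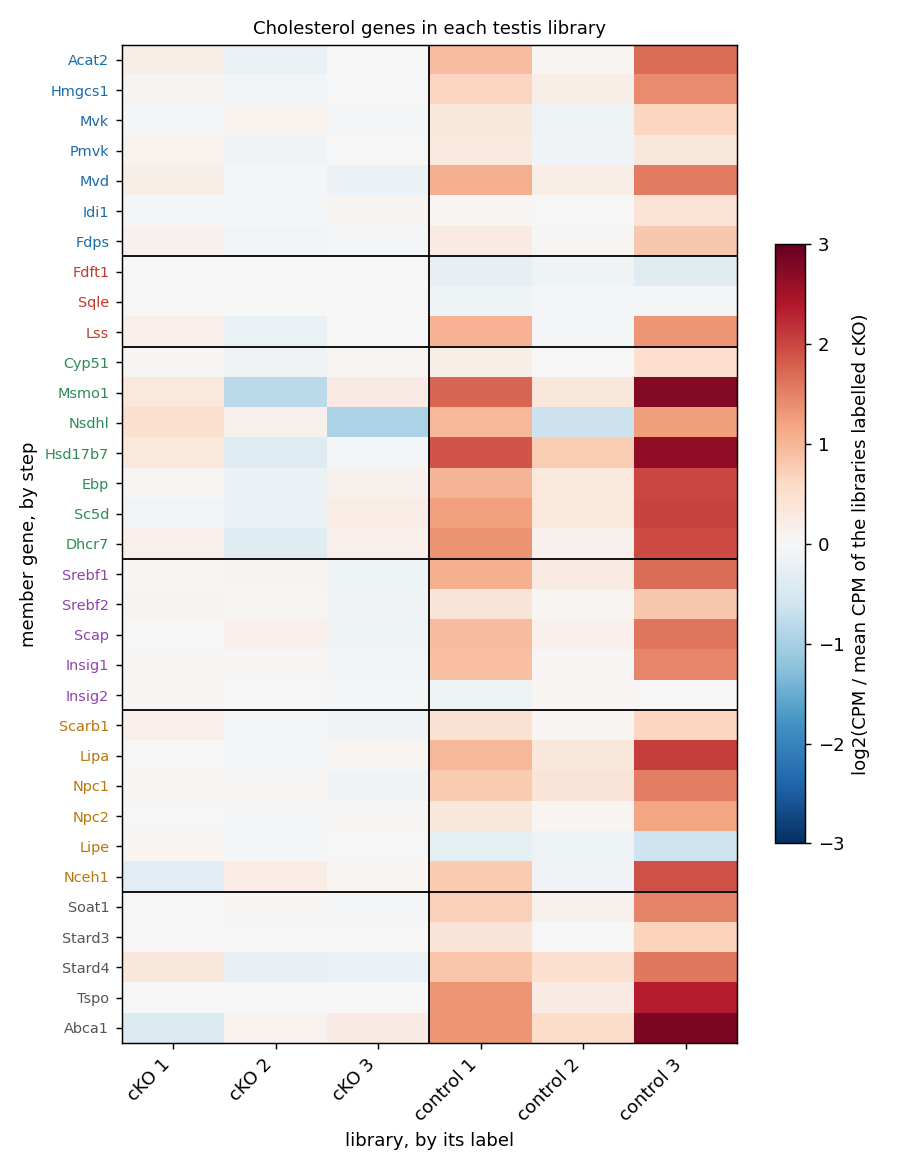
Each row is a member gene, grouped by step with coloured names, and each column is a library; colour gives log2 of the CPM over the mean CPM of the 3 libraries labelled cKO. Control replicate 3 is the highest library for 29 of the 33 genes shown, control replicate 1 is mostly intermediate, and control replicate 2 lies close to the libraries labelled cKO.

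The same order of libraries recurred gene after gene. Control replicate 3 was the highest library for 29 of the 33 members (40.9% of all genes) and the lowest for 2, Fdft1 and Lipe. Control replicate 2 lay inside the range of the libraries labelled cKO for 12 of the 33 members (41.0% of all genes). Relative to the mean of the libraries labelled cKO, the median member stood at 1.72 in control replicate 1, 1.04 in control replicate 2 and 2.76 in control replicate 3. Without control replicate 3 the median log2 fold change of the members was -0.46, and without control replicate 2 it was -1.17.

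Promoters of 27 of the 34 members were found in the RefSeq promoter table (build GRCm38.p6), taking the most upstream start listed there for each gene. The 250 bases before the start are shown for 4 genes with lower values in the libraries labelled cKO that represent early and late synthesis steps (Hmgcs1, Mvd, Sc5d and Ebp), for the sterol exporter Abca1, and for Insig2, whose level hardly differed between the groups. They were picked among the members whose window touches no exon of the GENCODE annotation. By the RefSeq gene coordinates, however, the windows of Abca1 and Insig2 reach into the 5′ end of their own gene. Those genes run up to chr4:53159988 and chr1:121332662. Each window reads 5′ to 3′ on the gene's strand, and capitals mark CCAAT on either strand (ATTGG on the other). In Hmgcs1 they also mark CACNCCAC, the inner part of the sterol element core TCACNCCAC. The windows lie at chr13:119690101-119690350 (plus strand) for Hmgcs1, chr8:122443423-122443672 (minus) for Mvd, chr9:42264301-42264550 (minus) for Sc5d, chrX:8193513-8193762 (minus) for Ebp, chr4:53159896-53160145 (minus) for Abca1 and chr1:121332590-121332839 (minus) for Insig2.
Hmgcs1: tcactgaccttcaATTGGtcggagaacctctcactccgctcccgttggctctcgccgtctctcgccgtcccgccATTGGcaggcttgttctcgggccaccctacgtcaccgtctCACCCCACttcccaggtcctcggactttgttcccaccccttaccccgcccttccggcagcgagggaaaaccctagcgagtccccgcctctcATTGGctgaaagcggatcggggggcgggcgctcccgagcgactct
Mvd: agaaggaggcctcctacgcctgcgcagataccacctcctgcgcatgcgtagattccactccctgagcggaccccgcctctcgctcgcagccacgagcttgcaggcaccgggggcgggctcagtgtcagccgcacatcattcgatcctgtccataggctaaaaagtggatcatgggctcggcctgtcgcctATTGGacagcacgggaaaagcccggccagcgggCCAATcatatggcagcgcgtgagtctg
Sc5d: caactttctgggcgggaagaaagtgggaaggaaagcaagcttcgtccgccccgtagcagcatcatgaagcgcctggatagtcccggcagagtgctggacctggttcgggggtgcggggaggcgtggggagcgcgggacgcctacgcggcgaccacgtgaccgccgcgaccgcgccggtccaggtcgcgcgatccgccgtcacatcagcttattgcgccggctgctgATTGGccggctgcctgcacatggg
Ebp: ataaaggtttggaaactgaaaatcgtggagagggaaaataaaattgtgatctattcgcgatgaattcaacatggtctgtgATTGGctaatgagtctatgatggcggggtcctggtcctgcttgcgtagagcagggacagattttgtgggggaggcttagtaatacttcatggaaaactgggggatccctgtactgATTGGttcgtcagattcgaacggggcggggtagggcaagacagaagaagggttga
Abca1: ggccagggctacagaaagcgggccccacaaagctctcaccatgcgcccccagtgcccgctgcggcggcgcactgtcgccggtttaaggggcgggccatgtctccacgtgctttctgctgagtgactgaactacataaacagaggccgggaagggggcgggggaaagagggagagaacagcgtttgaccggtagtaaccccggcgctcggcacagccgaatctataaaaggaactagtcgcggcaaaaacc
Insig2: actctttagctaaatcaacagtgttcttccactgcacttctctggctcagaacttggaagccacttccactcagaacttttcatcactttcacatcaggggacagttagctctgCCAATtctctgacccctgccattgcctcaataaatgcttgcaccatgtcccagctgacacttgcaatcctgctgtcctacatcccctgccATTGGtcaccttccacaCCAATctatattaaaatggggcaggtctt
CCAAT, the box bound by the factor NF-Y, which acts with SREBP at sterol genes, was present on either strand in 22 of the 27 windows, or 81.5%, against 34.5% of all 27025 promoters in the table. The 5 windows without it belonged to Abca1, Acat2, Dhcr7, Lipe and Scap. The sterol element core TCACNCCAC was in 2 windows (Hmgcs1 and Stard3) and 1.03% of all promoters, and its inner part CACNCCAC, which every TCACNCCAC contains, was in 4 (Acat2, Hmgcs1, Insig1 and Stard3; 14.8%) and in 5.15% of all promoters. GGGCGG, the box bound by Sp1, was in 20 windows (74.1%) and 33.0% of all promoters, and the cAMP element TGACGTCA in 0 of the 27 windows and 1.60% of all promoters. Among the matched members the median log2 fold change was -0.88 with CCAAT and -1.03 without it, with no test. A match is a string of letters in the window, with no measurement of binding. By GENCODE, all 250 bases of the Idi1, Lipe and Tm7sf2 windows and 214 of those of Msmo1 are exonic, and some other windows are so in part. By the RefSeq gene coordinates, the windows of Lipe (chr7:25395988-25396237) and Srebf1 (chr11:60222582-60222831) lie inside their own genes. The shares and medians above count all of these windows.

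The 7 enzymes of the mevalonate pathway, which turn acetyl-CoA into farnesyl diphosphate, all had negative log2 fold changes, between -1.06 and -0.17 with a median of -0.39. Hmgcs1, which condenses acetoacetyl-CoA and acetyl-CoA to HMG-CoA, had 22.2, 19.7 and 21.2 FPKM in the libraries labelled cKO, against 35.7, 24.5 and 62.5 in those labelled control. Its groups did not overlap, and its log2 fold change was -0.84 (SE 0.28; edgeR adjusted p = 0.166, DESeq2 adjusted p = 0.0431). Acat2, the cytosolic thiolase that makes acetoacetyl-CoA, had 7.76, 6.11 and 6.87 FPKM in the libraries labelled cKO, against 14.2, 7.45 and 24.1 in those labelled control, with a log2 fold change of -1.03 (SE 0.36; edgeR adjusted p = 0.166, DESeq2 adjusted p = 0.0467). Control replicate 2 lay inside the range labelled cKO. Acat2 has a near-identical copy, Acat3, whose expected counts were 59, 47 and 64 in the libraries labelled cKO, against 125, 89 and 191 in those labelled control, and how the counting shared reads between the copies is uncertain.

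Mvd, which decarboxylates mevalonate diphosphate, was the lowest of the 7 in level. It had 2.67, 2.30 and 2.10 FPKM in the libraries labelled cKO, against 5.47, 2.80 and 7.60 in those labelled control, with no overlap and a log2 fold change of -1.06 (SE 0.35, edgeR adjusted p = 0.166). Idi1, the isomerase of isopentenyl diphosphate, hardly separated the groups, at 22.7, 22.7 and 25.1 FPKM in the libraries labelled cKO and 26.3, 24.7 and 34.0 in those labelled control with overlap (log2 fold change -0.17, SE 0.13, edgeR adjusted p = 0.386). Fdps, which makes farnesyl diphosphate and stands at the branch to cholesterol, protein prenylation and ubiquinone, was the most abundant of the 7. It had 64.3, 56.5 and 58.0 FPKM in the libraries labelled cKO, against 75.7, 63.3 and 111 in those labelled control, with overlapping groups and a log2 fold change of -0.39 (SE 0.19, edgeR adjusted p = 0.211). The mevalonate kinases Mvk and Pmvk overlapped between the groups, with log2 fold changes of -0.31 and -0.18 and edgeR adjusted p of 0.354 and 0.489.

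The next 3 enzymes, which make squalene and close it to lanosterol, had log2 fold changes of both signs, with a median of 0.06. Fdft1, squalene synthase, at chr14:63145150-63181687, commits farnesyl diphosphate to sterol. It had 113, 114 and 112 FPKM in the libraries labelled cKO, against 104, 108 and 95.3 in those labelled control. Its groups did not overlap, and it was the only synthesis gene with its lowest value in control replicate 3 (log2 fold change 0.24, SE 0.10, unadjusted p = 0.0430, edgeR adjusted p = 0.175). Fdft1 shares 774 exonic bases with Ctsb on the opposite strand, and no label or file header says whether reads were counted by strand. In GENCODE annotation 12 members share exonic bases with another gene, 10 of them with a gene on the opposite strand, including Scap (985 bases with 5830462I19Rik) and Hmgcs1 (557 bases with Gm48342). If reads were counted without strand, those in the shared bases could come from either partner.

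Sqle, squalene epoxidase, an oxygen-dependent and rate-limiting step, was nearly level in all libraries. It had 39.2, 39.0 and 40.2 FPKM in the libraries labelled cKO, against 39.4, 40.2 and 42.3 in those labelled control, and 110, 109 and 112 CPM in the libraries labelled cKO, against 102, 108 and 109. The sign of its difference therefore hung on the scaling: the edgeR log2 fold change was 0.06 (SE 0.08, adjusted p = 0.658) and -0.04 by library totals. Lss, lanosterol synthase, which closes the first sterol ring system, had 3.57, 2.81 and 3.27 FPKM in the libraries labelled cKO, against 7.14, 3.28 and 8.75 in those labelled control. Control replicates 1 and 3 stood above the libraries labelled cKO and control replicate 2 lay among them, with a log2 fold change of -0.88 (SE 0.31, edgeR adjusted p = 0.166).

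**Figure D2:**
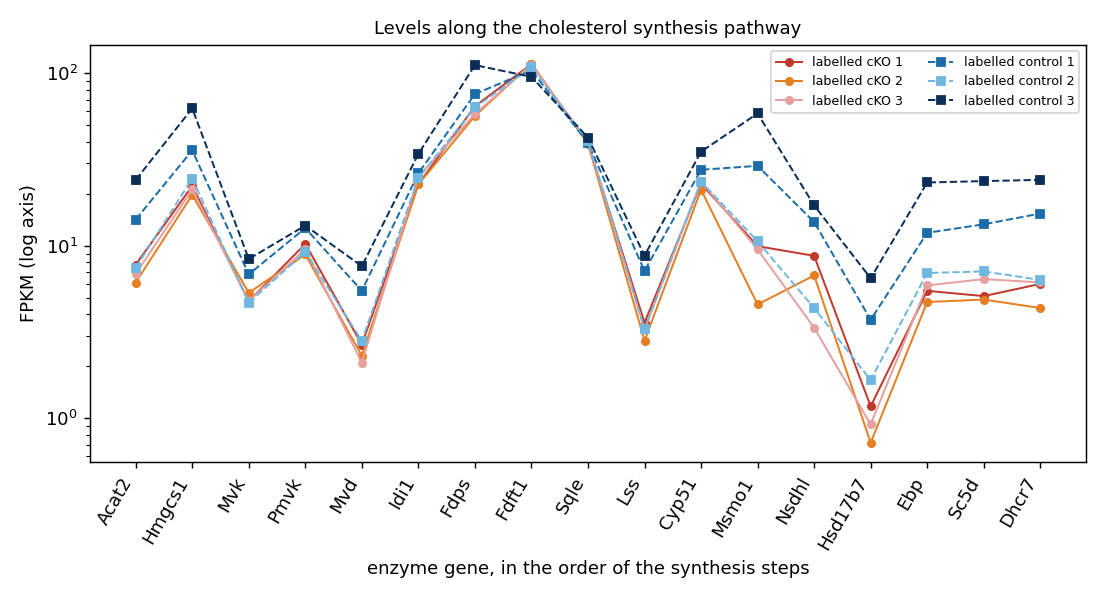
FPKM on a log axis for the 17 synthesis enzymes in pathway order, Tm7sf2 left out, with 1 line for each library; solid lines with circles are the libraries labelled cKO and dashed lines with squares those labelled control. The lines meet at Fdft1 and Sqle and spread apart at the enzymes on either side, widest at Msmo1 and Hsd17b7.

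The steps from lanosterol to cholesterol had the most negative median of the 6 groups of members, -1.33 over 7 genes, all of them negative. Hsd17b7, the 3-ketosteroid reductase of C4 demethylation, at chr1:169949535-169969242, had 1.17, 0.72 and 0.92 FPKM in the libraries labelled cKO, against 3.72, 1.66 and 6.47 in those labelled control. No library of one group reached the other, and the log2 fold change of -1.96 (SE 0.46) was the most negative of all members (unadjusted p = 0.00293, edgeR adjusted p = 0.166, DESeq2 adjusted p = 0.00376). It is also a thinly read gene, with 100, 61 and 78 expected counts in the libraries labelled cKO, against 304, 136 and 520 in those labelled control.

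Msmo1, the C4 methyl oxidase that opens the same demethylation, had 9.93, 4.56 and 9.52 FPKM in the libraries labelled cKO, against 29.0, 10.6 and 58.4 in those labelled control. The groups did not overlap, although control replicate 2 was only just above the highest library labelled cKO, and the log2 fold change was -1.91 (SE 0.57; edgeR adjusted p = 0.166, DESeq2 adjusted p = 0.0727). Cyp51, the lanosterol demethylase whose product is a meiosis-activating sterol of the gonads, differed far less. It had 22.9, 21.1 and 23.6 FPKM in the libraries labelled cKO, against 27.6, 23.5 and 35.1 in those labelled control, with overlap and a log2 fold change of -0.25 (SE 0.14, edgeR adjusted p = 0.255).

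Sc5d, the C5 desaturase, had 5.10, 4.87 and 6.40 FPKM in the libraries labelled cKO, against 13.3, 7.09 and 23.7 in those labelled control. Its groups did not overlap and its log2 fold change was -1.36 (SE 0.39; edgeR adjusted p = 0.166, DESeq2 adjusted p = 0.0139). Dhcr7, which reduces 7-dehydrocholesterol to cholesterol, had 6.00, 4.35 and 6.12 FPKM in the libraries labelled cKO, against 15.4, 6.33 and 24.1 in those labelled control. In FPKM control replicate 2 was just above the libraries labelled cKO and in CPM it lay among them, and the log2 fold change was -1.33 (SE 0.41; edgeR adjusted p = 0.166, DESeq2 adjusted p = 0.0178). Ebp, the sterol isomerase on the X chromosome, had a log2 fold change of -1.28 (SE 0.39; DESeq2 adjusted p = 0.0206). Nsdhl, the X-linked C4 decarboxylase, overlapped between the groups at -0.74 (SE 0.51), and among the libraries labelled cKO it was lowest in replicate 3.

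Tm7sf2, a sterol C14 reductase, was listed in only control replicates 1 and 3, with 96 and 276 expected counts. It was not listed in control replicate 2 or in the 3 libraries labelled cKO, and was set to 0 there. It did not pass the filter on low counts. It shares 532 exonic bases on the same strand with Vps51. Expected counts of Vps51 were 663, 681 and 651 in the libraries labelled cKO, against 763, 657 and 666 in those labelled control. Whether the absence of Tm7sf2 from those libraries is a failed estimate was not tested.

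The contrast between near-level and differing enzymes can also be written as a ratio within each library. Such ratios restate the values above and are no separate support for the contrast. FPKM of Fdft1 over that of Dhcr7 was 18.8, 26.1 and 18.3 in the libraries labelled cKO, against 6.77, 17.1 and 3.96 in those labelled control. Among the 17 enzymes, the highest over the lowest FPKM was 96.6, 158 and 122 in the libraries labelled cKO, against 27.9, 65.1 and 17.2 in those labelled control. Control replicate 2 came nearest to the libraries labelled cKO in both ratios. The highest enzyme was Fdft1 in every library except control replicate 3, where it was Fdps, and the lowest was Hsd17b7 in all 6. Across all members kept, the 8 most abundant in the libraries labelled cKO had a median log2 fold change of -0.21 and the other 25 one of -1.03. The ranking used the same cKO libraries that enter the fold change, which favours less negative values among the most abundant. These medians are therefore a description only.

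Of the 5 genes of SREBP control, 4 had negative log2 fold changes, with a median of -0.92, and DESeq2 called Srebf1 and Scap lower. Srebf1, the factor that favours fatty acid genes, had 3.69, 3.80 and 3.29 FPKM in the libraries labelled cKO, against 8.08, 4.41 and 12.5 in those labelled control (log2 fold change -1.10, SE 0.32, edgeR adjusted p = 0.166, DESeq2 adjusted p = 0.0193). Srebf2, the factor that favours cholesterol genes, had 7.68, 7.50 and 6.79 FPKM in the libraries labelled cKO, against 10.4, 7.88 and 14.0 in those labelled control, with a log2 fold change of -0.45 (SE 0.19, edgeR adjusted p = 0.179). Srebf1 did not overlap between the groups, and Srebf2 overlapped in CPM. The FPKM of Srebf2 over that of Srebf1 was 2.08, 1.97 and 2.06 in the libraries labelled cKO, against 1.28, 1.79 and 1.12 in those labelled control.

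Scap, the escort that carries SREBP to the Golgi, had 6.89, 7.76 and 6.24 FPKM in the libraries labelled cKO, against 14.4, 8.12 and 23.1 in those labelled control (log2 fold change -1.02, SE 0.32, edgeR adjusted p = 0.166, DESeq2 adjusted p = 0.0266). The groups did not overlap, with control replicate 2 close above cKO replicate 2. The INSIG proteins retain SCAP in the endoplasmic reticulum. Insig1, itself a target of SREBP, had 5.51, 5.57 and 5.05 FPKM in the libraries labelled cKO, against 10.9, 5.78 and 16.2 in those labelled control, with a log2 fold change of -0.92 (SE 0.32, edgeR adjusted p = 0.166) and an overlap in CPM.

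Insig2, its partner in that role, had 20.3, 20.4 and 19.6 FPKM in the libraries labelled cKO, against 19.5, 22.1 and 22.2 in those labelled control. Its libraries were intermixed, with a log2 fold change of 0.03 (SE 0.10, edgeR adjusted p = 0.864) that was -0.07 by library totals. FPKM of Insig2 was 3.68, 3.67 and 3.88 times that of Insig1 in the libraries labelled cKO, against 1.78, 3.82 and 1.37 times in those labelled control.

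**Figure D3:**
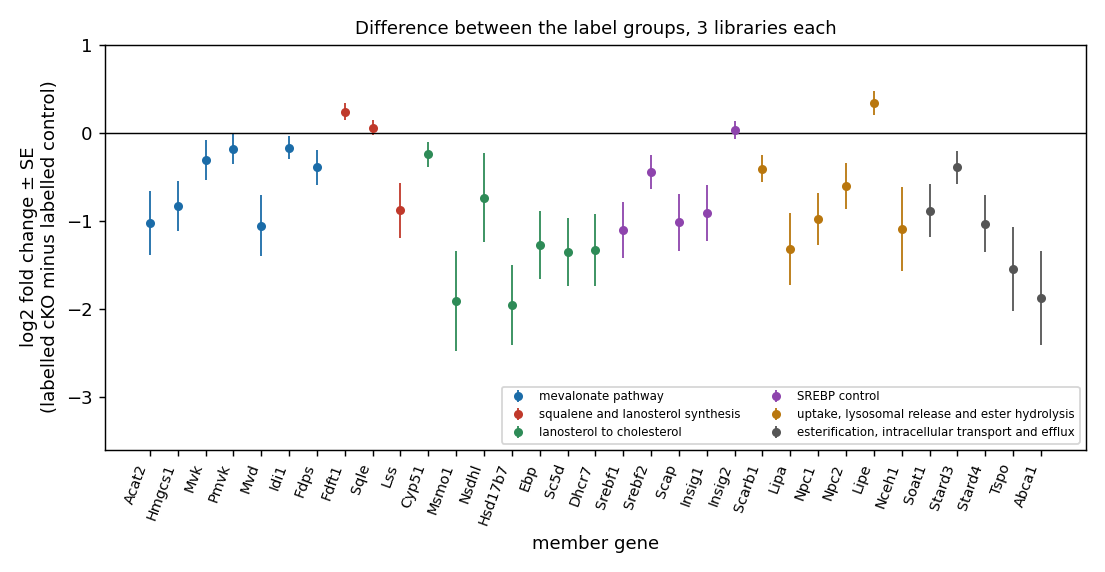
Log2 fold change (labelled cKO minus labelled control, 3 libraries each) of the 33 members that passed the filter, from edgeR, with bars of 1 SE; colours give the step. Fdft1, Sqle, Insig2 and Lipe lie above 0 (Sqle and Insig2 turn below 0 by library totals) and the other 29 below, with the lowest values at Hsd17b7, Msmo1 and Abca1.

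Of the 6 genes of uptake, lysosomal release and ester hydrolysis, 5 had negative log2 fold changes and the median was -0.79. Scarb1, the HDL receptor by which steroidogenic cells take up cholesteryl esters, and by which Sertoli cells bind apoptotic germ cells, was abundant. It had 53.7, 47.1 and 46.4 FPKM in the libraries labelled cKO, against 72.0, 52.8 and 80.9 in those labelled control. Control replicate 2 lay within the libraries labelled cKO, and the log2 fold change was -0.41 (SE 0.16, edgeR adjusted p = 0.170, DESeq2 adjusted p = 0.140).

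Lipa, the lysosomal acid lipase that frees cholesterol from endocytosed esters, had 1.89, 1.83 and 2.01 FPKM in the libraries labelled cKO, against 4.12, 2.51 and 8.81 in those labelled control (log2 fold change -1.32, SE 0.41, edgeR adjusted p = 0.166, DESeq2 adjusted p = 0.0254). Npc1, the membrane protein through which that cholesterol leaves the lysosome, had 1.17, 1.16 and 1.06 FPKM in the libraries labelled cKO, against 2.09, 1.54 and 3.58 in those labelled control (log2 fold change -0.98, SE 0.30, edgeR adjusted p = 0.166, DESeq2 adjusted p = 0.0391). Npc2, the soluble carrier that hands cholesterol to NPC1, had 14.5, 13.9 and 14.8 FPKM in the libraries labelled cKO, against 19.8, 15.5 and 35.4 in those labelled control (log2 fold change -0.61, SE 0.26, edgeR adjusted p = 0.183). None of these 3 lysosomal genes overlapped between the groups. Npc1 shares 511 exonic bases with Rmc1 on the opposite strand.

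The ester hydrolases had log2 fold changes of opposite sign. Lipe, hormone-sensitive lipase, which hydrolyses cholesteryl and acylglycerol esters and whose loss makes male mice sterile, lies at chr7:25379527-25398486. It had 123, 114 and 119 FPKM in the libraries labelled cKO, against 107, 110 and 84.2 in those labelled control. Every library labelled cKO was above every control library, and control replicate 3 was the lowest (log2 fold change 0.34, SE 0.13, unadjusted p = 0.0374, edgeR adjusted p = 0.172). It was the most abundant member in 4 of the 6 libraries, Fdft1 being so in cKO replicate 2 and Fdps in control replicate 3. Lipe shares 918 exonic bases with 4732471J01Rik on the opposite strand, and DESeq2 did not call it (adjusted p = 0.133). Nceh1, a neutral cholesteryl ester hydrolase of macrophages, was low, at 0.65 to 0.94 FPKM in the libraries labelled cKO and 0.79 to 3.32 in those labelled control (log2 fold change -1.10, SE 0.48, edgeR adjusted p = 0.183).

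All 5 genes of esterification, intracellular transport and efflux had negative log2 fold changes, with a median of -1.04. Abca1, the exporter that loads cholesterol onto apolipoproteins, at chr4:53030789-53159988, had 3.97, 5.70 and 6.28 FPKM in the libraries labelled cKO, against 14.3, 8.12 and 41.0 in those labelled control. The groups did not overlap, and control replicate 3 stood at 7.06 times the mean CPM of the libraries labelled cKO, the highest such ratio of any member (log2 fold change -1.88, SE 0.53, edgeR adjusted p = 0.166, DESeq2 adjusted p = 0.0695). Without control replicate 3 the log2 fold change was -0.98.

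Tspo, the mitochondrial translocator protein, abundant in steroidogenic cells, was the member that varied least in FPKM among the libraries labelled cKO, relative to its level. It had 5.12, 5.14 and 5.10 FPKM there, against 14.0, 6.25 and 28.5 in those labelled control, with no overlap (log2 fold change -1.55, SE 0.48, edgeR adjusted p = 0.166, DESeq2 adjusted p = 0.0201). Soat1, which esterifies cholesterol for storage in droplets, had 8.31, 8.40 and 8.01 FPKM in the libraries labelled cKO, against 14.7, 9.44 and 25.1 in those labelled control (log2 fold change -0.89, SE 0.30, edgeR adjusted p = 0.166, DESeq2 adjusted p = 0.0399). Stard4, a soluble sterol carrier, had 1.88, 1.29 and 1.32 FPKM in the libraries labelled cKO, against 2.89, 2.16 and 4.85 in those labelled control (log2 fold change -1.04, SE 0.33, edgeR adjusted p = 0.166, DESeq2 adjusted p = 0.0459). Neither Soat1 nor Stard4 overlapped between the groups. Stard3, which tethers late endosomes to the endoplasmic reticulum, had the log2 fold change nearest to 0 of the 5, -0.40 (SE 0.19, edgeR adjusted p = 0.206).

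Set beside each other, the 6 groups of members differed in size and in the order of their medians, with no test between them. The median log2 fold changes were -1.33 for lanosterol to cholesterol, -1.04 for esterification, transport and efflux, -0.92 for SREBP control, -0.79 for uptake and hydrolysis, -0.39 for the mevalonate pathway and 0.06 for squalene and lanosterol synthesis. Without control replicate 3 they were -0.85, -0.67, -0.54, -0.34, -0.14 and 0.07 in the same order. The 7 late synthesis genes that passed the filter summed to 59.3, 47.0 and 55.8 FPKM in the libraries labelled cKO, against 115, 60.5 and 188 in those labelled control. The squalene and lanosterol genes summed to 156, 155 and 156 FPKM in the libraries labelled cKO, against 150, 152 and 146 in those labelled control.

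Markers of the somatic cell types mostly had lower values in the libraries labelled cKO, while those of spermatogonia went both ways. All 12 Leydig markers had negative log2 fold changes, with a median of -1.56, and their summed FPKM was 1496, 1666 and 1522 in the libraries labelled cKO, against 4261, 2116 and 10311 in those labelled control. None of these 12 was at 0 in any library. Most of the sum came from Insl3 alone, with 955, 1110 and 1001 FPKM in the libraries labelled cKO, against 2845, 1337 and 7339 in those labelled control. All 12 Sertoli markers were negative, with a median of -0.97 and sums of 878, 894 and 843 FPKM in the libraries labelled cKO, against 1584, 1123 and 2804. All 10 testicular macrophage markers were negative, with a median of -1.45 and sums of 58.6, 57.1 and 50.7 FPKM, against 131, 59.6 and 257 in the libraries labelled control. DESeq2 called 6 of 12 Leydig, 11 of 12 Sertoli and 6 of 10 macrophage markers lower and edgeR none of them, with 12, 12 and 9 at an unadjusted p under 0.05. Without control replicate 3 the 3 medians were -0.96, -0.57 and -0.83. Of the peritubular myoid markers 6 of 7 were negative, with a median of -0.61 (-0.37 without control replicate 3), and DESeq2 called 2 lower. The positive one, Actg2, was the most abundant of the 7 (log2 fold change 0.33, SE 0.13, edgeR adjusted p = 0.170). The myoid sum was 243, 247 and 231 FPKM in the libraries labelled cKO, against 259, 240 and 277 in those labelled control. Of the endothelial markers 6 of 7 were negative, with a median of -0.53 (-0.31 without control replicate 3), and DESeq2 called 0. Of the spermatogonial markers 5 of 8 were negative, with a median of -0.37 (-0.31 without control replicate 3), and DESeq2 called Kit and Dmrt1 lower. The 3 positive ones were Id4, Gfra1 and Sohlh1, with log2 fold changes of 0.15, 0.15 and 0.27, and DESeq2 called 0 higher.

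Markers of later germ cells had log2 fold changes of the other sign. All 11 spermatid markers and all 8 pachytene spermatocyte markers had positive log2 fold changes, with medians of 0.37 and 0.30 (0.24 and 0.20 without control replicate 3), and DESeq2 called 1 spermatid marker and 0 pachytene markers higher. The spermatid sum was 27981, 26313 and 25606 FPKM in the libraries labelled cKO, against 23537, 24824 and 17777 in those labelled control. The pachytene sum was 3995, 3869 and 3924 FPKM, against 3405, 3859 and 2874. In these bulk samples, fewer cells of a type and less RNA per cell cannot be told apart, and the part that these marker differences have in the cholesterol results was not tested. Lipe is also a gene of fat cells, and 7 adipocyte markers summed to 11.0, 13.0 and 6.29 FPKM in the libraries labelled cKO, against 7.04, 8.69 and 7.47 in those labelled control. The adipocyte marker Cfd was at 0 in some libraries. Only 4 of the 7 passed the filter on low counts, 2 with a negative and 2 with a positive log2 fold change, and DESeq2 called 0.

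**Figure D4:**
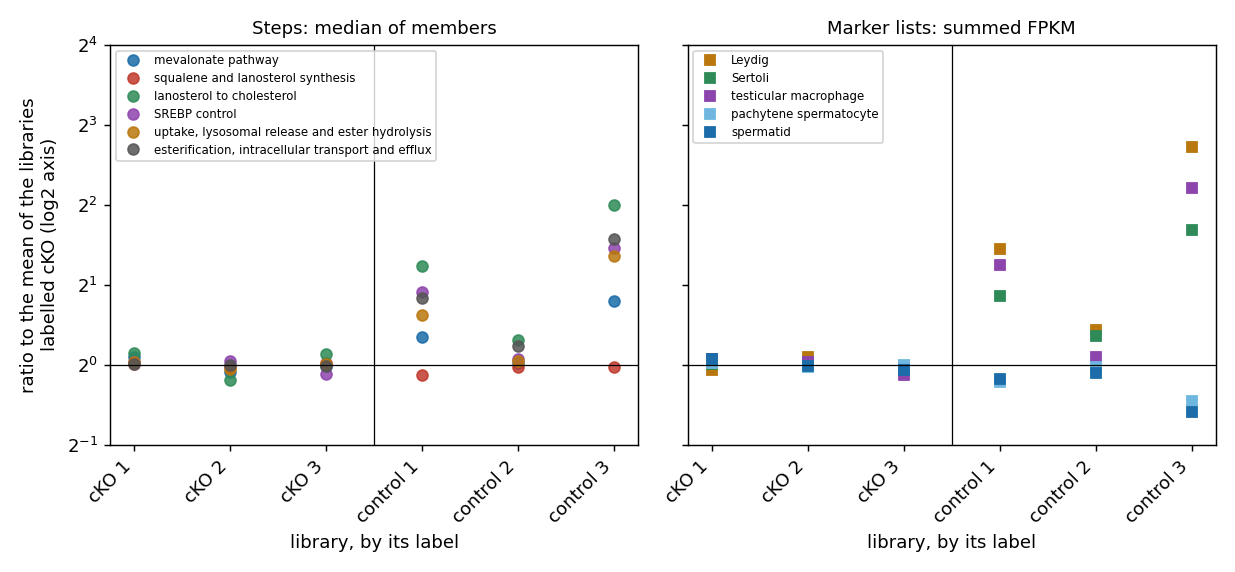
Ratio to the mean of the libraries labelled cKO, on a log2 axis, by library: on the left the median over the members of each step, on the right the summed FPKM of 5 marker lists. In control replicate 3 the late synthesis genes reach 3.99 and the squalene and lanosterol genes 0.98, while the Leydig, macrophage and Sertoli sums lie above 1 and the spermatid and pachytene sums below it. Most of the Leydig sum comes from Insl3.

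Other genes of lipid and sterol metabolism also mostly had lower values in the libraries labelled cKO. Of 45 such genes, 43 passed the filter, 32 with a negative and 11 with a positive log2 fold change, and their median was -0.56 (-0.30 without control replicate 3). EdgeR called 0 of them, 18 were lower and 0 higher at an unadjusted p under 0.05, and DESeq2 called 9 lower and 0 higher. Among fatty acid genes that SREBP controls, 7 of 8 were negative, including Acly, ATP citrate lyase, which supplies acetyl-CoA (log2 fold change -1.17, SE 0.34, DESeq2 adjusted p = 0.0146), and Fasn, fatty acid synthase (-0.73, SE 0.22, DESeq2 adjusted p = 0.0343). Of the genes that cleave SREBP or degrade sterol-regulated proteins, 4 of 8 were negative, and DESeq2 called only Rnf145.

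The liver X receptors, which sense oxysterols and switch on Abca1, had log2 fold changes of -0.17 (Nr1h2) and 0.05 (Nr1h3), with edgeR adjusted p of 0.394 and 0.820. Among lipoprotein receptors and other transport genes, 8 of 9 were negative, and DESeq2 called Lrp1, Stard5 and Lcat lower. Cyp27a1, the mitochondrial sterol hydroxylase, had 3.74, 3.75 and 3.01 FPKM in the libraries labelled cKO, against 9.05, 3.48 and 15.4 in those labelled control (log2 fold change -1.30, SE 0.46, DESeq2 adjusted p = 0.0388). Control replicate 2 again lay among the libraries labelled cKO.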

How the data were processed

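Whole-testis poly(A) RNA was sequenced in 3 libraries labelled cKO and 3 labelled control. The authors deposited 1 table per library with expected counts and FPKM per gene and a gene length that can differ between libraries, per the file headers. The submitters' processing notes name bcl2fastq 2.16, HISAT2 2.0.4, Bowtie2 2.2.5, RSEM, DESeq2 and the build mm10, without roles. Genes absent from a table were set to 0. From 24.6% to 25.8% of expected counts were not whole, and they were rounded. EdgeR 4.0.16 (R 4.3.3) with TMM, default filtering (minimum count 10, minimum total 15) and the quasi-likelihood F-test was fitted on all 6 libraries without covariates, with Benjamini-Hochberg adjustment over 18269 genes and a threshold of 0.05. SE is the absolute log2 fold change over the square root of F. The common biological coefficient of variation was 22.8%. DESeq2 1.42.0, limma 3.58.1 on log2(FPKM + 1) and log2(FPKM + 0.1), other scalings and filters, a length offset, a replicate block and leaving out each library were alternatives. The edgeR step was tested on simulated data. The members and lists were chosen with earlier results of these data known. Members were described per library if among the 3 most abundant or the 3 lowest p of their step; other pathway genes were named if among the 3 most abundant of their list or called. Gene coordinates come from RefSeq, and exon overlaps from GENCODE M21 (GRCm38).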

Additional observations from a re-analysis of the deposited data

How the results depend on the processing

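The median log2 fold change of the members kept its sign under every alternative run, and was -0.79 with the replicate block. That fit called 0 members and 0 genes. The replicate numbers share no source in the labels, and deviations of same-numbered libraries correlated at 0.043, -0.0067 and -0.039, so the numbers were not taken as pairs. DESeq2 called 13 members lower, and 72 genes higher and 1363 lower in all. Limma called 1 gene higher under both pseudocounts. Leaving out 1 library at a time, edgeR called 0 to 1 members higher, 0 to 26 lower, 0 to 2049 genes higher and 0 to 3851 lower, each highest count coming without control replicate 2, where the 26 include Tm7sf2. Over the 27 members described per library, 404 values under 15 settings held 362 with the same sign and side of the threshold, 34 that passed it newly (22 without control replicate 2 and 12 in DESeq2) and 8 with the opposite sign, all of Sqle or Insig2. Sqle was -0.043 by library totals, -0.041 with limma and a pseudocount of 1, and -0.0419 with 0.1. Insig2 was -0.0705 by library totals, -0.00644 with the filter at 5 CPM, -0.0349 without control replicate 1 (up to 0.098 without control replicate 2), and -0.0735 and -0.0766 with limma at pseudocounts of 1 and 0.1. The cause of these changes was not tested. Library totals moved the median of all genes to -0.104. With 3 libraries a group, and control libraries that differ more than those labelled cKO, a value that missed the threshold does not show equal levels.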
